A study of Mus musculus with 24 samples.

Results

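The comparison described here set CD4 T cells from the bone marrow of mice treated with ruxolitinib alone against CD4 T cells from untreated mice. Its members were chosen from the sample labels: the CD4 libraries of the ruxolitinib (RUX) pools 19, 20 and 21 and of the untreated pools 13, 14 and 15, 6 of the 24 libraries of the series. All mice were female CByB6F1 hybrids with bone marrow failure (BMF), 2 to 5 months old. Cells were sorted by flow cytometry, and 2 to 3 mice of a group were pooled for each library, so a library is a pool and not an animal. The remaining libraries came from mice given cyclosporine (CSA) or RUX+CSA, and from CD8 cells of the same 4 kinds of mice. Untreated mice had marrow failure too; no mice without it were analysed here, and the labels used here give neither dose nor duration.

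RUX is an inhibitor of the Janus kinases JAK1 and JAK2. These kinases sit on the inner tails of cytokine receptors and phosphorylate STAT proteins, which then enter the nucleus and switch on target genes. Interferon gamma signals through JAK1 and JAK2; interleukin 2 and its relatives signal through JAK1, JAK3 and STAT5. Immune marrow failure is a T cell disease in which interferon gamma made by T cells is a known mediator. The drug blocks an enzyme activity, so what RNA can show is the level of the target genes at the time of sorting.

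Read pairs per library ran from 18196150 to 32735858, and between 13240 and 16459 genes had a read. A count of 3 read pairs corresponds to 0.0916 to 0.165 CPM (a count scaled to a fixed library total) in these libraries, a floor for counting error only. The CD4 label held: Cd4, the coreceptor that defines the cells, was at 1353, 1196 and 1464 CPM in RUX pools and at 1234, 1643 and 1201 CPM in untreated pools. Cd8a, the coreceptor chain of the other lineage, was at 1.18 to 4.35 CPM in RUX pools and at 2.32 to 7.94 CPM in untreated pools. The 18 T cell identity genes summed to 12550 to 13090 CPM in RUX pools and to 11440 to 13830 CPM in untreated pools, so the ranges overlapped. In these bulk pools, fewer cells of a type and less RNA per cell cannot be told apart.

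No gene passed the threshold of an adjusted p below 0.05 between RUX and untreated CD4 cells. Among 13175 genes tested with edgeR's quasi-likelihood test, 0 were called (0% of genes tested), and the smallest adjusted p was 0.497. At an unadjusted p below 0.05 there were 548 genes (4.16%), 219 higher in RUX cells (1.66%) and 329 lower (2.50%). Limma-voom also called 0, and DESeq2 called 12 (0.0911%). The 12 were Prss34 and Epx, higher in RUX cells, and Fcgr2b, Lrp1, Itga1, Gzmb, Adgre1, Csf1r, Mrc1, Zeb2, Tgfbr1 and Slco2b1, lower in RUX cells. The median log2 fold change over all genes was 0.004, and 51.0% of genes lay above 0. For the 9085 genes with a mean of at least 3 on the log2 CPM scale, the median 95% interval reached 0.309 log2 units to either side of the estimate. Genes whose 3 RUX pools all lay to one side of the 3 untreated pools made up 8.83% of genes tested (4.44% higher, 4.39% lower), and those shares stand as the background for the counts below. All directions below are therefore differences that did not pass correction over all genes, and p-values measure the spread between pools.

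The kinases that RUX binds were transcribed at like levels in both groups. Jak1 was at 1086, 1111 and 1143 CPM in RUX pools and at 1194, 1011 and 1113 CPM in untreated pools, a log2 fold change of 0.01 (95% interval -0.18 to 0.20). Jak2, the other main target, was at 427, 341 and 379 CPM in RUX pools and at 354, 339 and 399 CPM in untreated pools, a log2 fold change of 0.07 (-0.15 to 0.29). Both pairs of groups overlapped, and both intervals keep any change of the transcript well under a doubling. Jak3, the lymphocyte kinase of the common gamma chain, differed by 0.12 (-0.11 to 0.35), and Tyk2, the kinase shared by type I interferon and interleukin 12 receptors, by -0.005 (-0.22 to 0.22).

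Of the 7 STAT genes, 6 lay above 0 (median log2 fold change 0.10), and 0 had groups that did not overlap; leaving out 1 library at a time gave medians from 0.07 without RUX pool 21 to 0.19 without RUX pool 20. Stat5b, the main interleukin 2 effector, differed by -0.06 (-0.23 to 0.11), and Stat5a, its close paralog, by 0.13 (-0.10 to 0.37). Stat3, the factor of interleukin 6 signalling, was at 756, 631 and 789 CPM in RUX pools and at 616, 674 and 738 CPM in untreated pools, with overlap. Stat4, the factor of interleukin 12 signalling, was at 347, 348 and 361 CPM in RUX pools and at 317, 366 and 308 CPM in untreated pools.

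**Figure D1:**
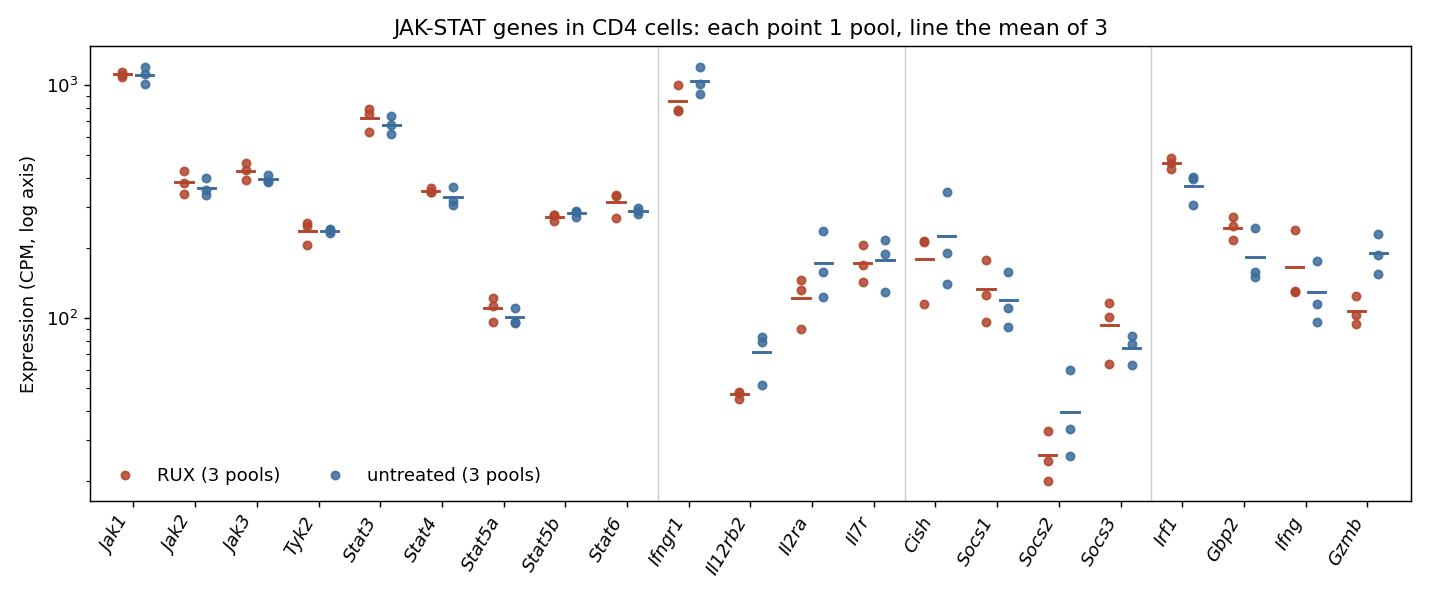
Expression in CPM on a log axis of 21 genes in the 3 RUX pools (red, left) and the 3 untreated pools (blue, right) of CD4 cells, with lines at the means; vertical lines part kinases and STATs, receptors, feedback genes, and downstream genes. Il12rb2 and Gzmb sit lower and Irf1 higher in all 3 RUX pools, while Jak1, Jak2 and Cish overlap between groups.

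Among 20 receptor chains that signal through JAKs, 13 lay below 0, against 49.0% of all genes (median -0.07, from -0.12 without RUX pool 21 to -0.03 without untreated pool 13); 3 had all RUX pools below all untreated pools and 0 had them above. Il12rb2, the inducible signalling chain of the interleukin 12 receptor on T helper 1 cells (chromosome 6, 67292018 to 67376137 on mm10), was at 48.3, 47.8 and 45.1 CPM in RUX pools and at 79.4, 83.1 and 51.7 CPM in untreated pools. The RUX pools were close to each other and below each untreated pool, of which pool 15 came nearest. The log2 fold change was -0.60 (-0.94 to -0.26; edgeR unadjusted p = 0.00183, adjusted p = 1), and its partner chain Il12rb1 differed by 0.15 (-0.15 to 0.44) with overlapping pools.

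Ifnar1, a chain of the type I interferon receptor, was at 121, 122 and 120 CPM in RUX pools and at 141, 137 and 143 CPM in untreated pools. This was a small but tight difference of -0.21 (-0.39 to -0.03), with no overlap. Il4ra, the interleukin 4 receptor chain, also had separate groups at -0.29 (-0.58 to 0.01). Ifngr1, the ligand-binding chain for interferon gamma, overlapped between groups at -0.29 (-0.56 to -0.01). Il2ra, the inducible interleukin 2 receptor chain, was at 132, 90.0 and 146 CPM in RUX pools and at 158, 236 and 124 CPM in untreated pools, with an interval from -1.33 to 0.34. Il7r, the survival receptor of resting T cells, differed by -0.05 (-0.93 to 0.84), an interval too wide to place the change.

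Inhibitors and phosphatases that restrain JAK signalling, whether induced by it or not, gave no common direction: of 21 genes, 11 lay above 0 and 10 below. Cish, a STAT5 target that damps interleukin 2 signalling, was at 212, 115 and 214 CPM in RUX pools and at 190, 348 and 140 CPM in untreated pools. Pools of both groups were interleaved, and the interval of -1.18 to 0.53 allows a fall by a factor of 2 as well as a modest rise. Socs1, the inhibitor induced by interferon gamma, was at 178, 96.7 and 126 CPM in RUX pools and at 91.2, 157 and 111 CPM in untreated pools, again interleaved. Socs2, another STAT5 target, stood at 32.9, 20.1 and 24.4 CPM in RUX pools and at 33.4, 59.9 and 25.5 CPM in untreated pools, and Socs3, a STAT3 target, differed by 0.33 (-0.14 to 0.79). Socs5 had separate groups, at 11.4, 14.4 and 10.6 CPM in RUX pools and at 14.5, 20.7 and 17.7 CPM in untreated pools. Pias3, a binding inhibitor of STAT3, had separate groups in the other direction, at 45.7, 49.8 and 50.8 CPM in RUX pools and at 42.4, 37.5 and 42.9 CPM in untreated pools.

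The 42 measured genes of the interferon gamma response leaned upward in RUX cells and none passed the test. Of these, 38 lay above 0, against 51.0% of all genes, with a median log2 fold change of 0.25 against 0.004. All 3 RUX pools were above all 3 untreated pools for 11 of the 42 and below for 0, where 4.44% and 4.39% of all genes were so placed. The genes share the same 6 libraries and respond to the same signals, so they are not independent readings. As a mean log2 CPM over the list, the RUX pools were at 7.46, 7.29 and 7.59 and the untreated pools at 7.15, 6.97 and 7.45. Untreated pool 15 lay above RUX pool 20, so the list as a whole overlapped between groups. Leaving out any 1 of the 6 libraries kept the list's median between 0.19 and 0.32.

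Irf1, an early transcription factor of the interferon gamma response (chromosome 11, 53770014 to 53778374 on mm10), was at 462, 438 and 490 CPM in RUX pools and at 403, 306 and 395 CPM in untreated pools. The groups did not overlap, and the log2 fold change was 0.33 (0.06 to 0.61; edgeR unadjusted p = 0.0218, adjusted p = 1). Tap1, a subunit of the transporter that loads peptides onto MHC class I, was at 920, 817 and 858 CPM in RUX pools and at 714, 606 and 782 CPM in untreated pools. Its partner Tap2 was at 896, 753 and 865 CPM in RUX pools and at 686, 705 and 725 CPM in untreated pools. Both transporter subunits were separate between groups, at 0.30 and 0.25 on the log2 scale. Psmb10, a catalytic subunit of the immunoproteasome, was at 224, 212 and 202 CPM in RUX pools and at 174, 170 and 189 CPM in untreated pools. Irf9, a DNA-binding factor of interferon signalling, stood at 205, 186 and 209 CPM in RUX pools and at 170, 136 and 169 CPM in untreated pools.

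The GTPases that interferon gamma induces against intracellular microbes varied more. Igtp was at 564, 487 and 568 CPM in RUX pools and at 411, 316 and 486 CPM in untreated pools, so the lowest RUX pool barely cleared the highest untreated one. Gbp6, a guanylate-binding protein, was at 317, 227 and 306 CPM in RUX pools and at 195, 167 and 200 CPM in untreated pools, and Gbp2 overlapped at 0.41 (-0.11 to 0.94). The guanylate-binding genes and immunity-related GTPases belong to families of near-identical copies, so reads could be split among them. The 4 members below 0 were Ciita, the switch of MHC class II genes, Cxcl9, a chemokine, Fgl2, a secreted fibrinogen-like protein, and Gbp7. Ifng itself was at 130, 131 and 239 CPM in RUX pools and at 96.2, 115 and 176 CPM in untreated pools, with overlap and an interval of -0.42 to 1.15. Of the type I interferon response genes, 26 of 46 lay above 0, with a median of 0.05 that was 0.20 without untreated pool 15 and 0 without untreated pool 13 or RUX pool 21. Ifit1 differed by -0.03 (-0.88 to 0.83) and Mx1, which encodes an antiviral GTPase, by -0.35 (-0.92 to 0.21).

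**Figure D2:**
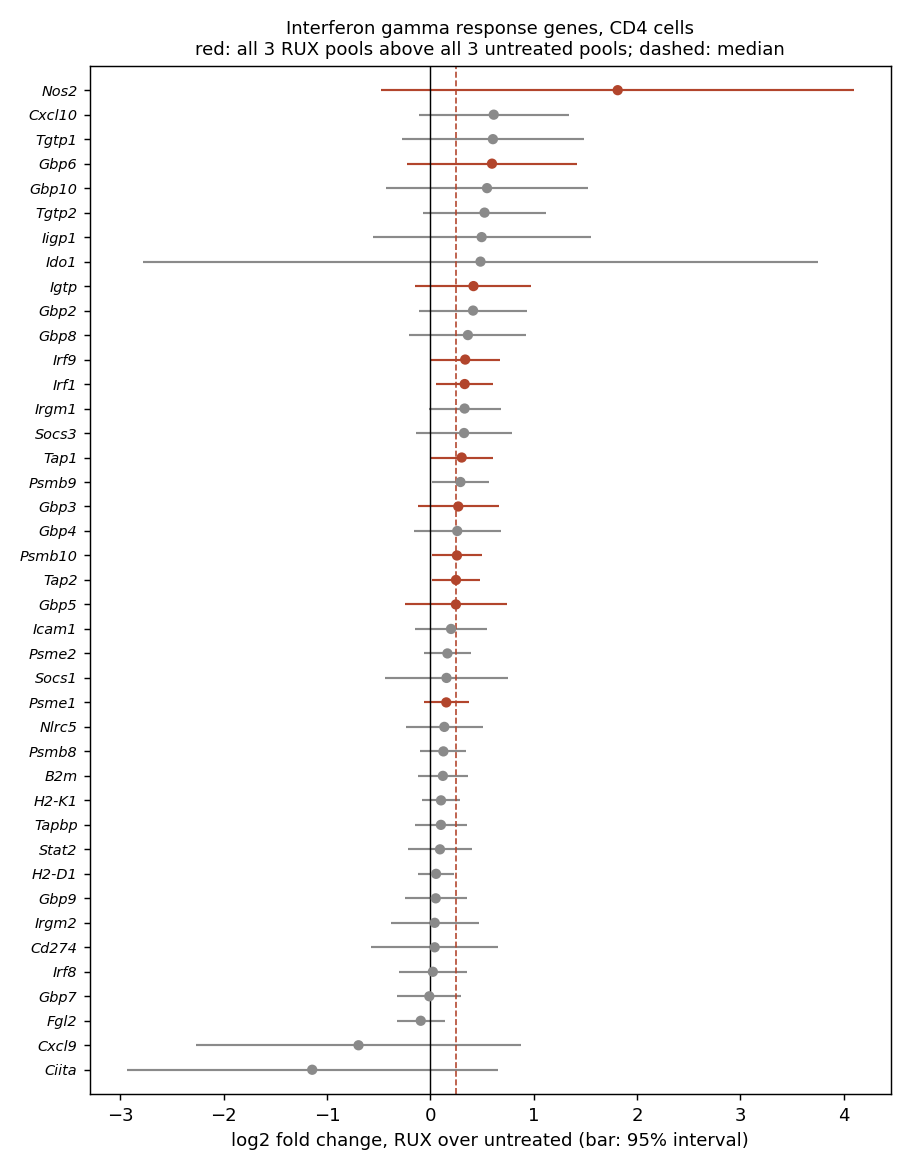
Log2 fold change of RUX over untreated CD4 cells for interferon gamma response genes, with 95% intervals; red marks genes whose 3 RUX pools all lay above the 3 untreated pools, and the dashed line is the list's median of 0.25. Most points lie to the right of 0, while most intervals cross 0.

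Promoter sequence is shown for 3 genes whose pools did not overlap and that hold the core of the gamma-activated sequence, which STAT dimers bind. Zeb2, lower in RUX cells, also meets both conditions, and its sequence is not shown. The core searched was TTCNNNGAA, which reads the same on both strands. The windows are the 250 bases upstream of a RefSeq start (build GRCm38.p6), 5′ to 3′ along the gene, with the core in capitals. Irf1 lies at chr11:53769764-53770013, plus strand, and is the upstream one of 2 starts; Samhd1, a nucleotide hydrolase that limits viruses, lies at chr2:157135097-157135346, minus strand; Il12rb2 lies at chr6:67376189-67376438, minus strand.
Irf1: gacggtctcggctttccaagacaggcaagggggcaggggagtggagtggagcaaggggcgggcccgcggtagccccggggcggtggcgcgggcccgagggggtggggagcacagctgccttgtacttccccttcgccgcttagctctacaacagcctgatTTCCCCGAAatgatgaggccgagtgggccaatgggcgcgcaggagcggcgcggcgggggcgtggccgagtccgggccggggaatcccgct
Samhd1: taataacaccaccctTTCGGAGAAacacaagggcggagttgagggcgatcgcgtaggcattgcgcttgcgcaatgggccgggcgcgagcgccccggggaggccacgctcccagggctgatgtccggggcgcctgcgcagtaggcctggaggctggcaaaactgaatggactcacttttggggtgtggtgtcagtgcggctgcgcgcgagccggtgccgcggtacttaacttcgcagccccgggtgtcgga
Il12rb2: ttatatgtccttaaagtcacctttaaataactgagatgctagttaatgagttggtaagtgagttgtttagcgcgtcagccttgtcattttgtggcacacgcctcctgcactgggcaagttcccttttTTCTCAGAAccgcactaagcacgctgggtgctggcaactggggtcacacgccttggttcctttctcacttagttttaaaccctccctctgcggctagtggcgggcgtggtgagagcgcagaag
The core begins 90 bases before the start in Irf1, 235 bases before it in Samhd1 and 123 bases before it in Il12rb2. Samhd1 was at 612, 546 and 659 CPM in RUX pools and at 450, 399 and 545 CPM in untreated pools, a narrow separation in the direction of Irf1 and opposite to Il12rb2. Of the 45 named genes found in the RefSeq promoter table, out of 52 looked for, 8 held the core in a window: Irf1, Samhd1, Il12rb2, Zeb2, Socs3, Ifng, Il7r and Foxp3. It was held by 7.02% of all 32851 windows there. Among genes with a window, it occurred in 7.35% of those tested, in 12 of 30 (40%) of the interferon gamma list, in 6 of 25 (24%) STAT5 targets and in 5 of 35 (14.3%) of the type I interferon list. A match describes the letters and is no measure of binding.

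STAT5 targets, the genes that interleukin 2 and interleukin 7 drive, showed no common direction. Of 32 genes, 13 lay above 0 and 19 below (median -0.08), with 2 separate groups higher and 3 lower; the median was 0.03 without untreated pool 14 and 0.01 without untreated pool 15. Gzmb, the granule protease granzyme B (chromosome 14, 56258858 to 56262260 on mm10), was at 103, 94.7 and 125 CPM in RUX pools and at 186, 230 and 154 CPM in untreated pools. All RUX pools were below all untreated pools, and the log2 fold change was -0.82 (-1.30 to -0.34; edgeR unadjusted p = 0.00298, adjusted p = 1; called lower by DESeq2). Myc, which encodes a transcription factor of cell growth, was at 62.5, 64.6 and 44.7 CPM in RUX pools and at 70.6, 65.7 and 73.2 CPM in untreated pools, separate by about 1 CPM. Lta, the cytokine lymphotoxin alpha, was separate the other way, at 40.5, 26.4 and 38.2 CPM in RUX pools and at 23.3, 25.7 and 25.1 CPM in untreated pools. The survival genes Bcl2 and Mcl1 differed by -0.17 and -0.10 with overlapping pools, and the kinase gene Pim1 by -0.05.

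STAT3 targets had 16 of 18 tested genes above 0 and a median of 0.25, but 1 of them had separate groups. The median was 0.14 without RUX pool 21 and 0.15 without untreated pool 15, and RUX pool 20 lay below untreated pool 14 in the mean of the list. The gene with separate groups was Batf, an AP-1 family factor of several helper fates, at 291, 296 and 277 CPM in RUX pools and at 204, 242 and 250 CPM in untreated pools. Its log2 fold change was 0.31 (0.09 to 0.54). Nfil3, a leucine zipper repressor outside the list, had the smallest unadjusted p of the genes that were higher in RUX cells and reached the level set for naming, at 60.5, 52.2 and 65.8 CPM in RUX pools and at 31.2, 35.4 and 50.5 CPM in untreated pools. It separated narrowly because untreated pool 15 was close to RUX pool 20. Without pool 15, Nfil3 was called higher (adjusted p = 0.0425 by edgeR) and Il12rb2 lower (adjusted p = 0.0352 by edgeR). Pool 15 was the untreated pool nearest to the RUX pools for both genes, so smaller p-values were to be expected without it. With all libraries neither gene passed, and these calls are no added support.

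NF-kappa-B targets had 23 of 26 genes above 0 (median 0.19), 5 of them with separate groups and 0 with separate groups lower. Without untreated pool 13 the median was 0.12, with 19 of 26 above 0, and in the mean of the list RUX pool 20 lay below untreated pools 14 and 15. Nfkb1, which encodes the p50 precursor, was at 223, 213 and 245 CPM in RUX pools and at 187, 210 and 180 CPM in untreated pools. Tnip1, which restrains the pathway together with Tnfaip3, was at 155, 142 and 141 CPM in RUX pools and at 120, 124 and 126 CPM in untreated pools. The inhibitor gene Nfkbia overlapped at 0.33 (-0.01 to 0.68).

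Immediate early and stress genes had the highest median of the lists that are not cell markers, 0.40 over 27 genes with 24 above 0, yet 1 pool carried much of it. Hspa1a, the inducible heat shock protein, was at 3.64, 19.0 and 202 CPM in RUX pools and at 2.02, 4.61 and 6.49 CPM in untreated pools. Fos was at 137, 86.7 and 484 CPM in RUX pools and at 80.3, 113 and 130 CPM in untreated pools, and Jun at 134, 80.9 and 341 CPM in RUX pools and at 67.0, 91.6 and 119 CPM in untreated pools. RUX pool 21 stood above every other library for all 3 genes, and pool 20 also exceeded every untreated pool for Hspa1a. In the mean log2 CPM of the list, RUX pools 19 and 21 lay above every untreated pool and RUX pool 20 below untreated pools 14 and 15. Without pool 21 the list's median was 0.11, with 20 of 27 genes above 0. Ier3, an early response gene, was the only one of the 27 with separate groups. The part of cell handling, to which these genes also respond, was not tested.

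**Figure D3:**
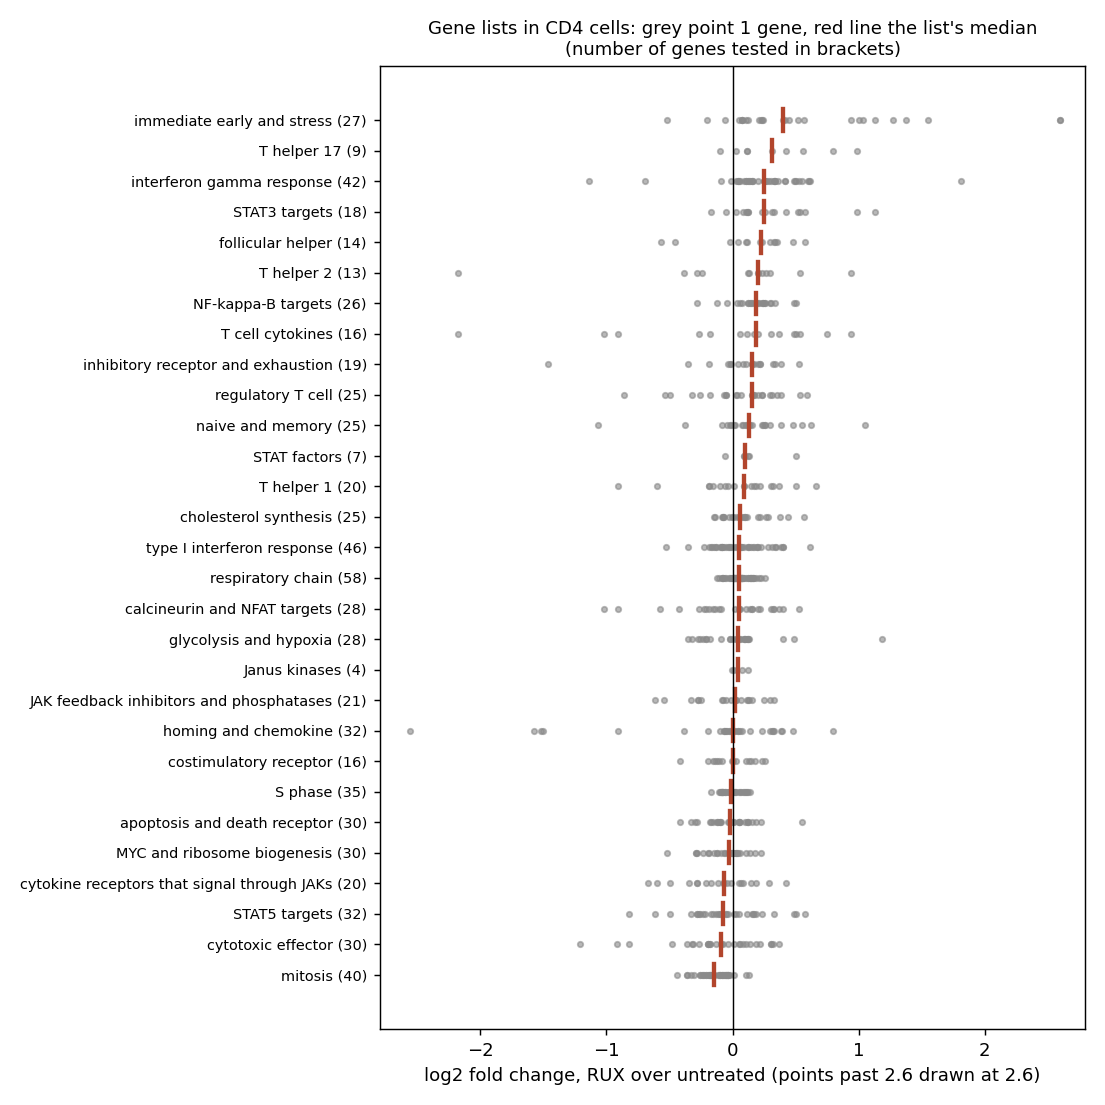
Log2 fold change of RUX over untreated CD4 cells for the genes of 29 lists (grey points, 1 per gene) with each list's median (red line), ordered by median; 2 heat shock genes past the axis are drawn at its edge. Medians run from 0.40 for immediate early and stress genes to -0.15 for mitosis genes.

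Helper cell programmes gave small medians that moved with single libraries. The lineage factors described here had overlapping pools: Tbx21 (T helper 1) differed by -0.03 (-0.29 to 0.23), Gata3 (T helper 2) by 0.13 (-0.20 to 0.46) and Foxp3 (regulatory T cells) by -0.05 (-0.42 to 0.32). Foxp3 was at 69.9, 72.4 and 69.1 CPM in RUX pools and at 62.3, 58.5 and 98.0 CPM in untreated pools, with the RUX pools inside the untreated range. List medians were 0.09 for T helper 1 (12 of 20 above 0), 0.20 for T helper 2 (9 of 13), 0.31 for T helper 17 (8 of 9) and 0.16 for regulatory T cells (16 of 25). Leaving out 1 library brought the T helper 1 median to 0.006 (without RUX pool 21), T helper 2 to -0.04 (without RUX pool 21) and regulatory T cells to -0.001 (without RUX pool 19). The T helper 17 median was 0.04, with 5 of 10 genes above 0, without untreated pool 15, although in the mean of that list all 3 RUX pools lay above all 3 untreated pools. Within the 20 genes of the T helper 1 list, 1 was separate lower (Il12rb2) and 3 were separate higher (the chemokine gene Ccl5, the granule gene Nkg7 and Lta). Over all genes tested, 4.39% were separate lower and 4.44% higher, and Ifng overlapped between groups. Ccl5 was at 714, 695 and 748 CPM in RUX pools and at 512, 622 and 596 CPM in untreated pools, and Nkg7 at 1738, 1808 and 1639 CPM in RUX pools and at 1391, 1553 and 1609 CPM in untreated pools.

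Follicular helper genes had a median of 0.23, with 11 of 14 above 0, and the median was 0.14 without RUX pool 20. Of the 14, 2 had separate groups higher and 0 lower, where 4.44% and 4.39% of all genes were so placed. Sh2d1a, the adaptor SAP that these cells need to help B cells, was at 229, 251 and 197 CPM in RUX pools and at 185, 149 and 195 CPM in untreated pools. Cd200, a surface inhibitory ligand, was at 125, 130 and 129 CPM in RUX pools and at 86.5, 110 and 107 CPM in untreated pools. Tox, the nuclear factor of chronically stimulated T cells, was at 585, 634 and 706 CPM in RUX pools and at 457, 521 and 560 CPM in untreated pools. In these 3 genes, which are not all of the follicular helper list, the groups were separate, with log2 fold changes of 0.36, 0.34 and 0.32. The checkpoint receptor Pdcd1 overlapped at 0.22 (-0.16 to 0.60).

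Cytotoxic genes split. Of 30, 12 lay above 0 and 18 below (median -0.09), with 2 separate higher (Ccl5, Nkg7) and 3 lower (Gzmb, Klrg1, Zeb2). Over all genes tested, 4.44% were separate higher and 4.39% lower. Without untreated pool 15 the list's median was -0.03, with 15 genes above 0 and 15 below. Zeb2, a transcriptional repressor found in terminal effector T cells and in macrophages (chromosome 2, 44983512 to 45113279 on mm10), was at 13.2, 17.1 and 15.3 CPM in RUX pools and at 22.5, 33.6 and 30.2 CPM in untreated pools. Its log2 fold change of -0.92 (-1.30 to -0.54) had the list's smallest adjusted p, 0.497 by edgeR, and DESeq2 called it lower. Klrg1, a receptor of terminal effectors, was at 61.0, 45.0 and 49.1 CPM in RUX pools and at 61.5, 65.4 and 67.0 CPM in untreated pools, a very narrow separation. Prf1, the pore protein perforin, overlapped at -0.13 (-0.62 to 0.36).

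Of the T cell cytokines, 11 of 16 lay above 0 (median 0.19; -0.07 without RUX pool 21), with 1 separate higher and 1 lower. Of the homing and chemokine genes, 16 lay above 0 and 16 below, with 1 separate higher and 2 lower. The separate higher genes were Lta and Ccl5, and the separate lower ones Csf2, Ccr9 and Itga1. Csf2, the cytokine GM-CSF, was at 7.23, 5.20 and 7.44 CPM in RUX pools and at 9.44, 20.1 and 10.8 CPM in untreated pools. Ccr9, a gut homing receptor, was at 5.68, 2.84 and 3.90 CPM in RUX pools and at 10.6, 18.4 and 6.60 CPM in untreated pools. Itga1, the collagen-binding integrin of resident T cells, was at 3.07, 5.46 and 2.22 CPM in RUX pools and at 10.6, 12.0 and 7.99 CPM in untreated pools. These 3 genes were separate and lower in RUX pools, with log2 fold changes of -1.02, -1.52 and -1.50, and DESeq2 called Itga1. All 3 were highest in untreated pool 14, as the macrophage genes Csf1r and Mrc1 were. Ccr9 is also among the dendritic cell markers used here. The part of other cells in the values of these 3 genes was not tested. Mitosis genes had 3 of 40 above 0 (median -0.15), but Mki67, the proliferation marker, was at 208, 275 and 168 CPM in RUX pools and at 409, 164 and 232 CPM in untreated pools. The highest value came from untreated pool 13, and without that pool the median of the mitosis list was 0.16, with 36 of 40 genes above 0. S phase genes had a median of -0.01, which was 0.20 with 35 of 35 above 0 without untreated pool 13 and -0.22 with 2 of 35 above 0 without untreated pool 14. Respiratory chain genes had 47 of 58 above 0 (median 0.05), but 20 of 58 (median -0.03) without RUX pool 20.

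The 10 genes of smallest unadjusted p in each direction were taken among genes with separate groups and a mean of at least 3 on the log2 CPM scale. Those higher in RUX pools included Nfil3, Apeh, Phlda1, Zmym6, Mtg2, Casp1, Samhd1, Ica1l and Mif4gd, with log2 fold changes from 0.27 to 0.83. Phlda1, a stress-induced nuclear protein, was at 31.0, 25.5 and 55.8 CPM in RUX pools and at 20.6, 20.3 and 22.2 CPM in untreated pools; Casp1, the inflammasome protease, was at 226, 217 and 241 CPM in RUX pools and at 186, 194 and 187 CPM in untreated pools. Those lower were Zeb2, Csf1r, Tgfbr1, Mrc1, Cpt1a, Axl, Fcgr2b, Pafah1b2, Il12rb2 and Psap, from -2.70 to -0.32. Tgfbr1, the kinase chain of the TGF-beta receptor, was at 24.0, 22.9 and 28.3 CPM in RUX pools and at 42.5, 47.2 and 32.7 CPM in untreated pools. Cpt1a, the gate of mitochondrial fatty acid oxidation, was at 169, 177 and 188 CPM in RUX pools and at 242, 248 and 214 CPM in untreated pools.

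Several of those genes mark macrophages, not T cells: Csf1r is the receptor of their growth factor, Mrc1 their mannose receptor, Axl a receptor for dying cells and Fcgr2b an inhibitory Fc receptor. Csf1r was at 9.93, 4.54 and 7.59 CPM in RUX pools and at 21.6, 62.9 and 32.3 CPM in untreated pools. Mrc1 was at 3.43, 2.94 and 8.13 CPM in RUX pools and at 19.8, 58.6 and 14.6 CPM in untreated pools. Both were highest in untreated pool 14. Across the macrophage and monocyte list 19 of 22 genes lay below 0 (median -1.71), 15 had separate groups lower and 0 higher, and 0 were called by edgeR; without untreated pool 14 the median was -1.11. The abundant members Lyz2 and Ctss overlapped, and the summed list ran from 797 to 1376 CPM in RUX pools and from 675 to 1952 CPM in untreated pools. Lyz2 alone added 916, 473 and 567 CPM to the sums of RUX pools, and 192, 111 and 1203 CPM to those of untreated pools. In the mean log2 CPM of the list, which weighs each gene alike, the groups were separate. That mean was 2.909, 2.366 and 3.182 in RUX pools and 3.456, 4.925 and 4.247 in untreated pools. None of the 22 was at 0 in any of the 6 libraries except 1 gene in RUX pool 19. MHC class II genes had 0 of 8 above 0 (median -1.18; -0.73 with 2 of 8 above 0 without untreated pool 15), summing to 328 to 596 CPM in RUX pools and to 454 to 1228 CPM in untreated pools. The part of macrophage RNA in the values of Zeb2, Tgfbr1, Psap and Cd68 was not tested.

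Granulocyte lineages leaned the other way and spread widely among untreated pools. The 18 neutrophil genes summed to 8382, 4247 and 4843 CPM in RUX pools and to 1719, 102 and 9470 CPM in untreated pools, with 9 of the 18 at 0 in untreated pool 14. The 8 basophil and mast cell genes summed to 128, 80.2 and 67.4 CPM in RUX pools and to 17.8, 0.342 and 71.3 CPM in untreated pools, with 7 of the 8 at 0 in pool 14. Prss34, a basophil protease with the smallest unadjusted p among these markers, had 505, 564 and 111 read pairs in RUX pools and 0, 0 and 2 read pairs in untreated pools. Its adjusted p was 0.497 by edgeR, and DESeq2 called it higher. Epx, the eosinophil peroxidase that DESeq2 also called, had 81 read pairs in RUX pool 21 and 0 in every other of the 6 libraries.

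**Figure D4:**
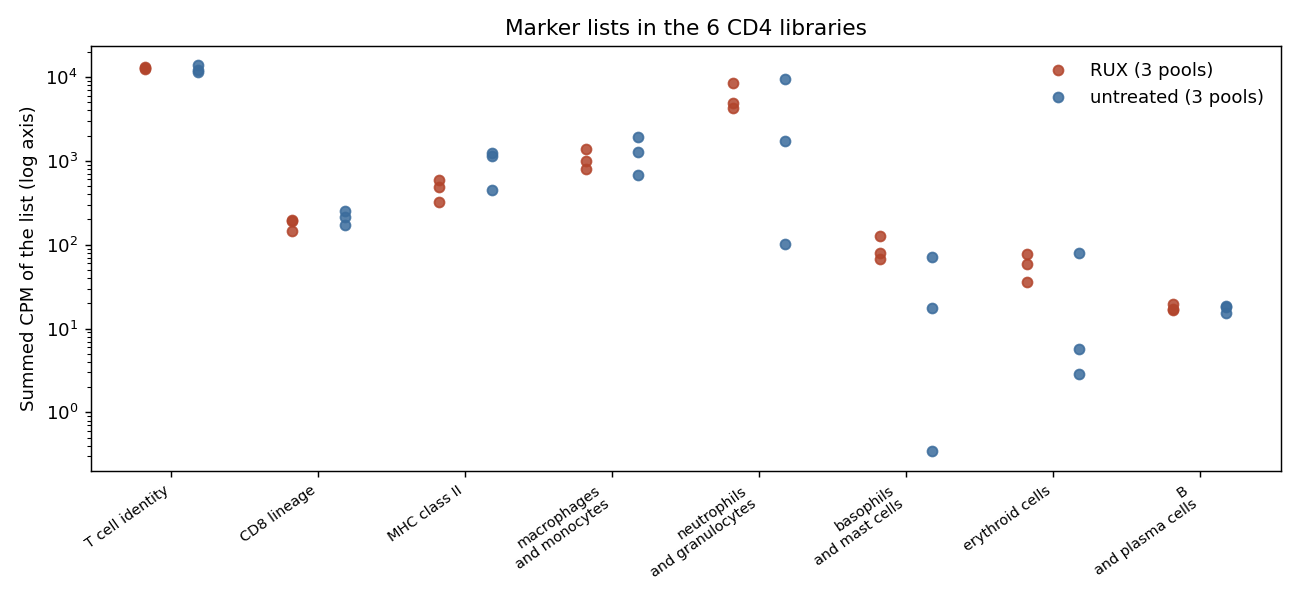
Summed CPM on a log axis of 8 marker lists in the 3 RUX pools (red, left) and the 3 untreated pools (blue, right) of CD4 cells. T cell identity is level between groups, whereas the neutrophil, basophil and erythroid sums of the untreated pools spread over more than a factor of 10.

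An alternative fit took the mean log2 CPM of 74 markers of other cells as a covariate. That mean was 2.61, 2.14 and 2.49 in RUX pools and 1.12, -0.07 and 3.07 in untreated pools, and 58.1% of its variance over the 12 CD4 libraries lay between groups. The fit called 1 gene, the basophil protease Mcpt8. Markers of macrophages, basophils and other cells made up the covariate, so Mcpt8 and the macrophage list were fitted against a mean that includes them. Macrophage markers were mostly lower and granulocyte markers mostly higher in RUX cells, so 1 mean cannot adjust for each cell type. In this fit the interferon gamma list had a median of 0.21, with 35 of 42 genes above 0. The macrophage list had a median of -1.53. The part of each other cell type in the interferon gamma list was not tested.

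The same drug was given on top of CSA, and the RUX+CSA and CSA libraries share no pool with the 6 above. In that comparison 37 genes passed the threshold (0.281% of genes tested), 24 higher and 13 lower in RUX+CSA cells. Of the 37, 33 had the same sign for RUX over untreated, and 17 of those had an edgeR unadjusted p below 0.05 there. Over all genes tested, 55.4% shared their sign, and 4.16% had such a p for RUX over untreated in either direction. Both comparisons used the same fit, with a shared estimate of each gene's spread. Genes called in one are therefore more likely to have a small p in the other, and the count of 17 is not independent support. They included Gzmb (log2 fold change -1.30 with CSA, adjusted p = 0.0388; -0.82 without), Tox (0.83, adjusted p = 0.0107; 0.32 without) and Cd200 (1.04, adjusted p = 0.00897; 0.34 without), all by edgeR. Nt5e, the ectoenzyme CD73 that makes adenosine, was at 1.23 with CSA (adjusted p = 0.0195 by edgeR) and at 0.59 without, and Batf at 0.60 (adjusted p = 0.027) and at 0.31. Ifngr1 was at -0.84 with CSA (adjusted p = 0.0138 by edgeR) and at -0.29 without. The 37 also held the B cell genes Ms4a1 and Cd79a, whose marker list summed to 39.3 to 138 CPM in RUX+CSA pools and to 17.2 to 26.7 CPM in CSA pools; their part in the other calls was not tested.

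Of the 20 genes taken by smallest p, 17 had the same sign with CSA, and 0 passed the threshold there. Il12rb2 was the nearest, at -0.79 with an adjusted p of 0.0534 by edgeR. Zeb2 was at -0.06 with CSA and -0.92 without. A test of the difference itself between the drug's effect with and without CSA called 0 of 13175 genes (0%), with 629 at an unadjusted p below 0.05 (4.77%). The smallest adjusted p, 0.338 by edgeR, belonged to Dpysl2, a cytoskeletal regulator, at 0.92 with CSA and -0.04 without. The interferon gamma list had 24 of 42 genes above 0 with CSA and a median of 0.02, and its mean log2 CPM was 7.03, 7.18 and 7.15 in RUX+CSA pools and 7.22, 7.42 and 6.60 in CSA pools. CSA pool 18 stood apart, and all RUX+CSA pools lay below the other CSA pools. Macrophage genes had 3 of 22 above 0 with CSA, with a median of -0.83.

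**Figure D5:**
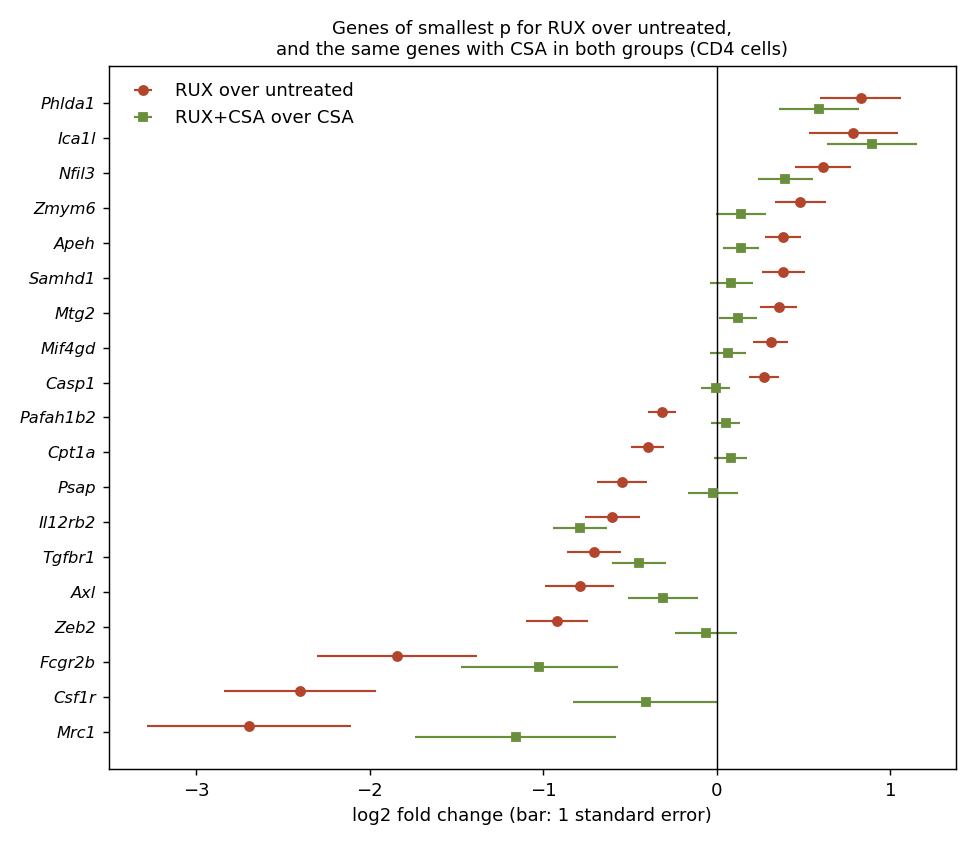
Log2 fold change with 1 standard error for genes of smallest p for RUX over untreated CD4 cells (red circles), beside RUX+CSA over CSA (green squares). The genes were chosen on the red values; most green values have the same sign and lie nearer 0.

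CD8 cells from mice given RUX alone were set against CD8 cells from untreated mice in a fit of all 24 libraries. There the drug comparison called 1 gene (0.00742%), and the test of the difference between CD4 and CD8 cells called 0 of 13476 (0%), with 441 at an unadjusted p below 0.05 (3.27%). The smallest adjusted p of that difference was 0.465 by edgeR, for Ifitm2, an interferon-induced membrane protein at -0.18 in CD4 cells and 1.48 in CD8 cells. The interferon gamma list had 19 of 42 genes above 0 in CD8 cells and a median of -0.01. For its members Irf1 and Gbp2, however, RUX pool 7 lay below every other CD8 pool compared. Irf1 was at 267.5, 410.5 and 455.7 CPM in RUX pools 7, 8 and 9 and at 396, 375 and 393 CPM in untreated pools. Gbp2 was at 88.6, 150 and 155 CPM in RUX pools and at 119, 116 and 116 CPM in untreated pools. The list as a whole was not followed by pool in CD8 cells. The immediate early list had 26 of 27 genes above 0 in CD8 cells and a median of 0.36. It was not followed by pool there either, and the part of cell handling was not tested. Nr4a1, an early response gene, was at 203, 44.6 and 52.5 CPM in CD8 RUX pools 7, 8 and 9. In CD8 untreated pools it was at 25.1, 13.8 and 53.6 CPM, so its groups overlapped and RUX pool 7 stood apart. Il12rb2 differed by -0.60 in CD4 cells, while in CD8 cells it was at 45.9, 14.0 and 12.6 CPM in RUX pools and at 26.5, 22.4 and 12.1 CPM in untreated pools. The CD8 difference of 0.25 rested on RUX pool 7, and the difference between lineages did not pass the threshold.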

How the data were processed

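Libraries were made from total RNA with the SMART-Seq mRNA LP kit, per the labels' protocols. Reads were aligned with STAR to mm10, per the submitters' processing notes. Read pairs were counted per gene with featureCounts 2.0.3, without strand, per the file headers, and the authors deposited these raw counts. Overlapping genes and near-identical copies can share reads.

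The 12 CD4 libraries were fitted together in R 4.3.3 with edgeR 4.0.16 (TMM, its expression filter, robust quasi-likelihood F test), a mean per group, and Benjamini-Hochberg adjustment over all genes that passed the filter, 13175 of 24421. CPM values of genes use TMM-scaled library totals; marker sums and the floor use unscaled totals; mean log2 CPM values carry a prior count of 2. Limma 3.58.1 and DESeq2 1.42.0 were alternatives, and the code was tested on simulated data. The comparison with CD8 cells used all 24 libraries. SDs are over 3 pools. The labels do not say whether pools came from separate experiments, so p-values measure the spread between pools only. Chi-square comparisons of replicate counts within the CD4 RUX group and within the CD4 untreated group found no replicate deposited a second time. Other pairs of libraries were not compared in this way.

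The members, the 42 gene lists and the tests were chosen with earlier results of these data known. Named genes were the 10 of smallest p in each direction with separate groups and a mean log2 CPM of at least 3, the 3 of smallest p in each test of a difference, and JAK-STAT and lineage genes set by name; other genes in the text are list members chosen after their values were seen. Promoters came from RefSeq windows of GRCm38.p6. Counts without molecular identifiers are not independent molecules. A few genes are not reported here.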

Additional observations from a re-analysis of the deposited data

How the results depend on the processing

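With 3 pools a group, differences under about 0.3 log2 units could not be placed for most well-expressed genes. TMM replaced by DESeq2-type size factors and limma-voom kept the count of called genes at 0 for RUX against untreated, for the difference with and without CSA and for the difference between CD4 and CD8 cells. DESeq2 called 12, 15 and 2 genes in these 3 comparisons. Without the expression filter 1 gene (Dpysl2) was called for the difference with and without CSA, and the marker covariate gave 1 for RUX against untreated. Leaving out 1 library gave 0 to 15 called genes for RUX against untreated, 0 to 6 for the difference with CSA and 0 to 2 for the difference between lineages. The 15 came without untreated pool 15, 13 higher and 2 lower: most are red cell, basophil or granulocyte genes (Rhag, Car1, Klf1, Ctsg, Cpa3, Gata2 among them), with Nfil3, Enpp2, Il12rb2 and Itgad; the cause was not tested. The 6 also came without untreated pool 15, and the 2 (Cd68, Ifitm2) without CD4 untreated pool 13. For CD4 RUX against untreated, fitting the 6 libraries alone gave a smallest adjusted p of 0.116, and all 24 gave 0.0575. Over 58 named genes, 717 values kept direction and side of the threshold, 30 uncalled values changed sign, 7 newly passed and 0 called values reversed. No paired analysis was possible because each pool number labels 1 library, so the groups share no number. The labels used here do not say whether CD4 and CD8 pools came from the same mice. The fit of all 24 libraries treated them as independent, and whether they were was not tested.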
